A study of Mus musculus with 6 samples.

Results

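The regions described here were short peaks of H3K27me3, the trimethylation of histone H3 at lysine 27, at the promoters of protein-coding genes in mouse neural stem cells (NSC). They were the peaks of the NSC list that lay on chromosomes 1 to 19, measured under 4000 bp, and overlapped the window within 1 kb of any transcription start site (TSS) of a protein-coding gene in GENCODE vM21. The rule kept 1611 of the 12982 NSC peaks, or of 9430 on the autosomes, and these belonged to 1052 of 20807 autosomal coding genes, or 5.06%. At coding promoters also lay 281 autosomal peaks of 4000 bp or more, called broad below, which belonged to 311 genes, 46 of them among the 1052, and 7404 autosomal peaks under 4000 bp lay away from coding promoters. H3K27me3 was mapped by ChIPSeq in 1 library of NSC and 1 of NSC Bmi1Over, and RNA was measured by RNASeq in 2 independent cultures of each. Both kinds of culture came from mouse embryos of the same age. The NSC were wild type, and NSC Bmi1Over carried the STOPFloxBmi1 transgene together with NestinCre, so that the recombination which releases Bmi1 was driven by the Nestin promoter. The mGIC samples were not analysed here. Peaks carry a fold enrichment over the background of the peak caller MACS2 and the −log10 of a q-value, and as each list came from a single library, no difference between the lists was tested. The methods give an upper and a lower total of aligned reads for the libraries of each kind. The upper total was higher, and the lower total lower, for NSC than for NSC Bmi1Over. The authors dropped the weakest libraries on read number, quality scores and fingerprint plots, and did not name the library kept. Which of the stated totals belongs to each list is therefore not known. The members were selected on the length and position of the called peaks, so lengths, enrichments and q-values are given as a description.

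H3K27me3 is deposited by Polycomb repressive complex 2, whose catalytic subunit is Ezh2, and is bound by the Cbx subunits of Polycomb repressive complex 1, of which Bmi1 is a component. The mark is known for wide domains over developmental regulators that are silent in a given lineage, and unmethylated CpG-rich DNA is a common site of Polycomb recruitment in mammals.

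To show the kinds of DNA that fell under these peaks, stretches free of annotated exons from 7 of them are given in mm10, plus strand, in lower case with each CpG in capitals. They were chosen after their values were seen. Barhl1 held the strongest peak outside 2 repetitive tracts described below, and the stretch shown lies in it at chr2:28918570-28918769. Dab1 (chr4:103619761-103619960) and Lhx2 (chr2:38339806-38339954) held peaks that covered a TSS, with CpG-dense stretches beside it, at genes with RNA in these cells. Oxtr (chr6:112490265-112490464, the whole peak) and Tenm4 (chr7:96212656-96212855) belonged to genes that were higher in the libraries labelled NSC Bmi1Over. Coil (chr11:88968507-88968706) and H60b (chr10:22157578-22157777) held peaks over CpG-poor DNA.
Barhl1: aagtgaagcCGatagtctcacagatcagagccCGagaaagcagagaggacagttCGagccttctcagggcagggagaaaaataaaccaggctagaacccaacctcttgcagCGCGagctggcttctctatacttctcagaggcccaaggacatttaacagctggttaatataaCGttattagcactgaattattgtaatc
Dab1: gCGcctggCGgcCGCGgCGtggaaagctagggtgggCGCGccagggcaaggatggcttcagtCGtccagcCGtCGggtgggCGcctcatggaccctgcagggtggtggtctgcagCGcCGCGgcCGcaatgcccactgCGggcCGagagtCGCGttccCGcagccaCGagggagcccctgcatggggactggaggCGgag
Lhx2: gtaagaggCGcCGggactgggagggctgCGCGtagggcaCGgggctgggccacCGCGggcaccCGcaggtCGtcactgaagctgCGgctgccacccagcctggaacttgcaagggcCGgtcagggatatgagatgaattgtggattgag
Oxtr: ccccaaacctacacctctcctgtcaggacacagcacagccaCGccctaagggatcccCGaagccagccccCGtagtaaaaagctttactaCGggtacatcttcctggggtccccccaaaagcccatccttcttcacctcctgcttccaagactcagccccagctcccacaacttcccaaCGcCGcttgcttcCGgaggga
Tenm4: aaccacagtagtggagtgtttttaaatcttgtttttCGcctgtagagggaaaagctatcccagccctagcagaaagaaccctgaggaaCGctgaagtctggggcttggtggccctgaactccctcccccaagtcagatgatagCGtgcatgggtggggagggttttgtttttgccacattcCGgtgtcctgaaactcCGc
Coil: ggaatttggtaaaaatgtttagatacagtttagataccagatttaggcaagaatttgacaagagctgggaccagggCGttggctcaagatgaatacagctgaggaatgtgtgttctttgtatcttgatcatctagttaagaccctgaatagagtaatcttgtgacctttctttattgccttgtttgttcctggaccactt
H60b: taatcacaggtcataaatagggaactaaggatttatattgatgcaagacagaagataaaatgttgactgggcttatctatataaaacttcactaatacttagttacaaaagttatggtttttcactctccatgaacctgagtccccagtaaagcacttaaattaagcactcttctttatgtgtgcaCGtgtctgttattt
The 200 bases of Dab1 held 22 CpG and the 149 bases of Lhx2 held 11, against 6 in Barhl1, 7 in Oxtr, 5 in Tenm4 and 1 each in Coil and H60b.

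The peaks were mostly far below the length limit. Their median length was 522 bp (quartiles 309 and 1182 bp), and 1130 of 1611, or 70.1%, measured under 1000 bp, while 189 measured 2000 bp or more. The median fold enrichment was 4.29 (quartiles 3.91 and 4.81), against 7.43 for the broad peaks at coding promoters and 4.07 for short peaks elsewhere. Just inside the limit were Gm4881 and Crhr1 (3941 bp each) and Arid3a (3939 bp), with enrichments of 5.58-fold, 6.09-fold and 5.11-fold. Just outside it were Rspo1 (4003 bp), Trank1 (4005 bp) and Cpm (4025 bp), with 5.003-fold, 6.19-fold and 4.77-fold. The enrichments on the 2 sides of the limit overlapped.

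Many short peaks were pieces of a longer series. Another NSC peak lay within 1 kb of 1119 of the 1611, or 69.5%. When peaks no more than 1 kb apart were chained, 343 members (21.3%) stood in chains spanning 4000 bp or more, and 82 (5.09%) lay within 5 kb of a broad peak. Of the 1052 genes, 623 had 1 short promoter peak, 310 had 2 and 119 had 3 or more. P4ha2, a subunit of the enzyme that hydroxylates collagen prolines, had the highest number, 10, spread over its alternative start sites. Lhx2, a LIM homeobox factor of the developing cortex, followed with 9.

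Relative to the starts, 619 members (38.4%) covered a coding TSS, 636 were centred upstream of the nearest coding TSS and 975 on it or downstream. A noncoding TSS also lay within 1 kb of 197 members, and 52 served the starts of 2 or more coding genes. For 845 genes (80.3%) a short peak lay within 1 kb of the 5′ end of the gene itself rather than of a shorter transcript only.

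The profile around the 5′ end was computed for the 996 genes outside the tracts that had short promoter peaks and no broad one. Cover by NSC peaks rose from 36.1% of these genes at the 5′ end to its highest value, 43.8%, at 700 bp downstream. Cover by NSC Bmi1Over peaks at the same genes was 3.71% at the 5′ end and reached 8.53% at 1300 bp downstream. At the 311 genes with a broad promoter peak, NSC cover was 86.8% at the 5′ end, with a highest value of 93.9%, and NSC Bmi1Over cover was 48.9%, with a highest value of 68.5%. Both sets of genes were chosen by peaks of the NSC list, which favours higher cover in NSC. The profiles therefore do not measure a change between the conditions.

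**Figure D1:**
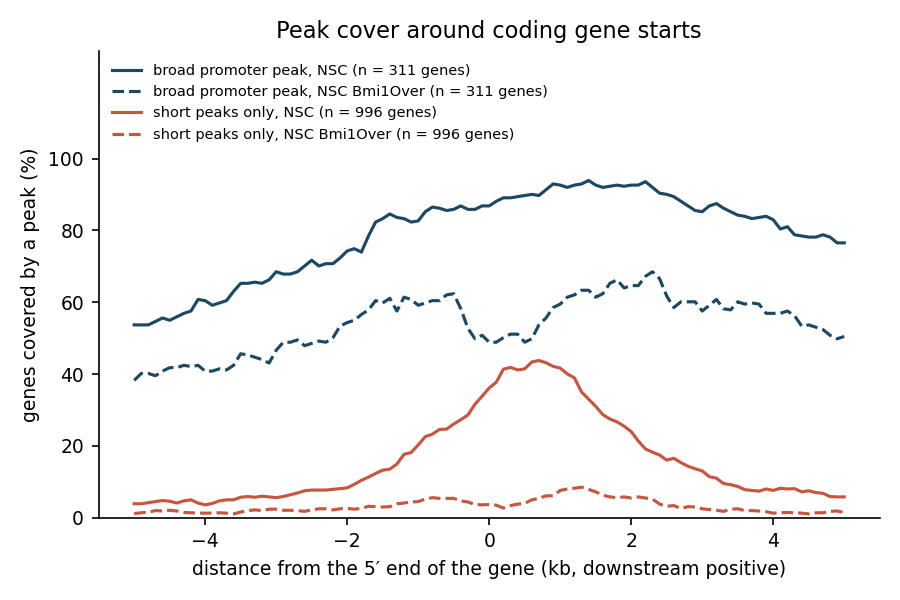
Share of genes (%) covered by an H3K27me3 peak at each distance from the 5′ end (kb, downstream positive), for 996 genes with short promoter peaks only and 311 with a broad promoter peak. Solid lines are NSC and dashed lines NSC Bmi1Over. Short-peak genes reached 43.8% in NSC and 8.53% in NSC Bmi1Over. The genes were chosen by their NSC peaks, which favours higher cover in NSC.

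The highest enrichments came from 2 tracts of repetitive DNA. These were found by grouping members of over 10-fold enrichment and their neighbours, a step chosen after the data were seen. The first, on chromosome 2 from 98662079 to 98667457 (mm10), held the members of Gm10801 at 73.6-fold and Gm10800 at 68.1-fold. The second, on chromosome 9 from 2999867 to 3038396, held 19 members at 8 predicted genes, among them Gm10722 (31.1-fold), Gm10717 (up to 23.2-fold) and Gm17535 (up to 25.5-fold). In the 21 tract members a median of 95.5% of bases was soft-masked as repeat, against 8.17% in the other 1590. A median of 81.6% of their 31-base words occurred in another member, against 0% in the others. In 16 of the 21 the commonest repeat period was 234 bp, the unit length of the mouse major satellite. Stretches 233 bp apart in the member at Gm10715 and Gm17535, at chr9:3035982-3036081 and chr9:3036215-3036314, are shown with differing bases in capitals, and 99 of 100 bases were identical.
Gm17535, first stretch: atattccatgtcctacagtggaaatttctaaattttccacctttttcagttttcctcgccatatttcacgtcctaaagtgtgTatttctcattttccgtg
Gm17535, second stretch: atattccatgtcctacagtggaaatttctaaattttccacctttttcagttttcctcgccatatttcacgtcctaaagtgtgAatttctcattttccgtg
Of these 21 members 20 overlapped an NSC Bmi1Over peak. Reads in near-identical copies cannot be placed with certainty, so their enrichments are uncertain, and values without the tracts are given below where they differ.

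Outside the tracts no member passed 8.31-fold. The strongest 10 peaks lay at Barhl1, Coil, Kif26a, Nefh, Gbx1, Gata5, Rgs6 and Lrrc26, with Barhl1 and Coil each holding 2. Barhl1, a homeobox factor of hindbrain and spinal cord neurons, had peaks of 3040 bp (8.31-fold) and 2716 bp (7.26-fold), the second over its start, in a chain of 5 peaks spanning 8617 bp. Its RNA level in NSC was 0.0345 RPKM, the reads per kb of exon scaled to library size. Gbx1, a homeobox factor of the developing brain and spinal cord, had a peak of 3351 bp at 7.60-fold and 0.147 RPKM. Gata5, a zinc finger factor of heart and endoderm, had a peak of 2897 bp at 7.43-fold and no read in NSC.

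Nefh, the heavy neurofilament subunit of mature neurons, had a peak of 2642 bp over its start at 7.67-fold and 0.0763 RPKM. Rgs6, a regulator of G protein signalling, had a peak of 1855 bp at 7.36-fold and 0.0348 RPKM. Lrrc26, an auxiliary subunit of BK potassium channels, stood at 7.34-fold and 0.0133 RPKM, and Kif26a, an atypical kinesin, at 7.71-fold and 0.778 RPKM. Coil, which encodes the scaffold protein of Cajal bodies, differed from these. Its peaks of 8.07-fold and 7.15-fold were 41.5% and 47.1% soft-masked with CpG ratios of 0.140 and 0.107, and its RNA stood at 5.23 RPKM. The stronger of them was shared with Elobl, which had no read.

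**Figure D2:**
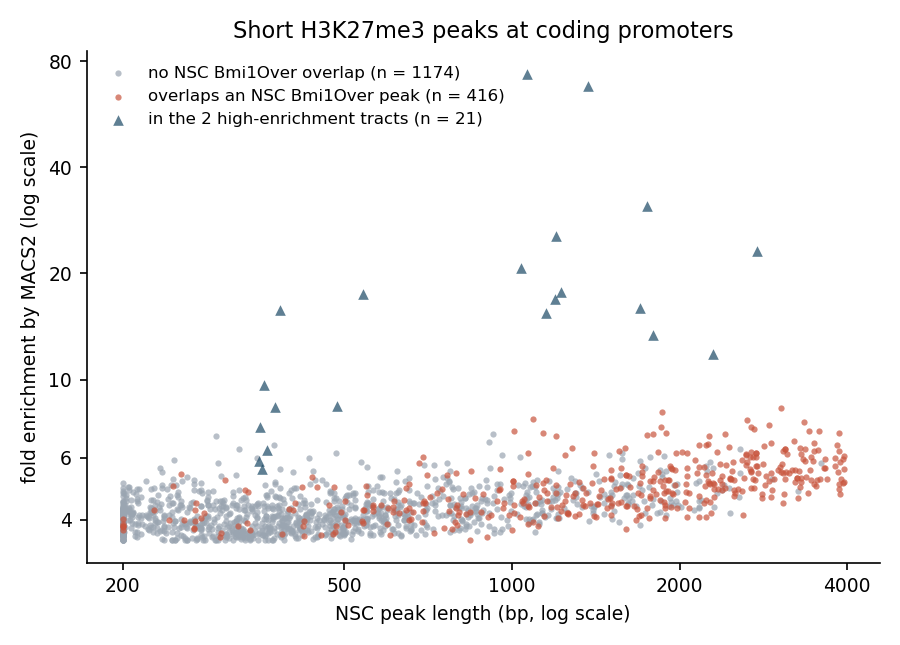
Length (bp, log scale) and fold enrichment (log scale) of the 1611 short NSC peaks at coding promoters. Red points overlap an NSC Bmi1Over peak (416), grey points do not (1174), and triangles are the 21 members in the repetitive tracts. Outside the tracts no peak passed 8.31-fold, and overlap was commoner among longer peaks.

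The DNA under the peaks was richer in CpG than under short peaks elsewhere. The CpG ratio, the observed number of CpG over that expected from the C and G content, had a median of 0.488 in the members, 0.478 in broad promoter peaks and 0.188 in short peaks elsewhere. A ratio of 0.6 or more was found in 564 members (35.0%), against 11.4% of broad promoter peaks and 3.50% of short peaks elsewhere. The median GC content was 55.6%, 50.1% and 45.3% in the same order. Members that covered a coding TSS had a median ratio of 0.596, and those that did not 0.388. The ratio hardly separated members that overlapped an NSC Bmi1Over peak (0.493) from those that did not (0.486). Promoter position and CpG content go together in the genome, and over the window within 1 kb of the 5′ end of genes the median ratio was 0.573 for genes with short peaks only, 0.631 for genes with a broad peak and 0.472 for genes with neither.

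An NSC Bmi1Over peak overlapped 436 of the 1611 members by at least 1 bp, or 27.1% (95% Wilson interval 24.95% to 29.3%). The share was 26.2% without the tracts. Of the broad promoter peaks 281 of 281 were overlapped (interval from 98.7%), and of the short peaks elsewhere 21.5% (20.6% to 22.5%). The intervals cover counting error only. NSC Bmi1Over peaks covered 18.1% of the bases in members and 70.1% of those in broad promoter peaks, and 134 members were overlapped by 2 or more of them. The whole NSC Bmi1Over list was shorter, with 5790 autosomal peaks against 9430, which moves with every share given here, and its part in them was not tested. With 1 library per condition, library depth and condition cannot be told apart.

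The overlap depended on length. Among members under 300 bp it was 4.99%, among those from 300 to under 500 bp 7.83%, from 500 to under 1000 bp 20.1%, from 1000 to under 2000 bp 51.4%, and from 2000 bp up 87.3%. The corresponding shares of short peaks away from coding promoters were 7.53%, 13.3%, 28.9%, 60.1% and 90.4%. The overall share was thus higher at coding promoters, yet the share within each of these 5 length classes was lower there. The counting intervals of the classes from 300 to under 500 bp (5.57% to 10.9% against 11.95% to 14.8%) and from 500 to under 1000 bp (16.3% to 24.6% against 26.7% to 31.1%) did not meet, and those of the other 3 classes did. Members were longer, with a median of 522 bp against 367 bp.

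**Figure D3:**
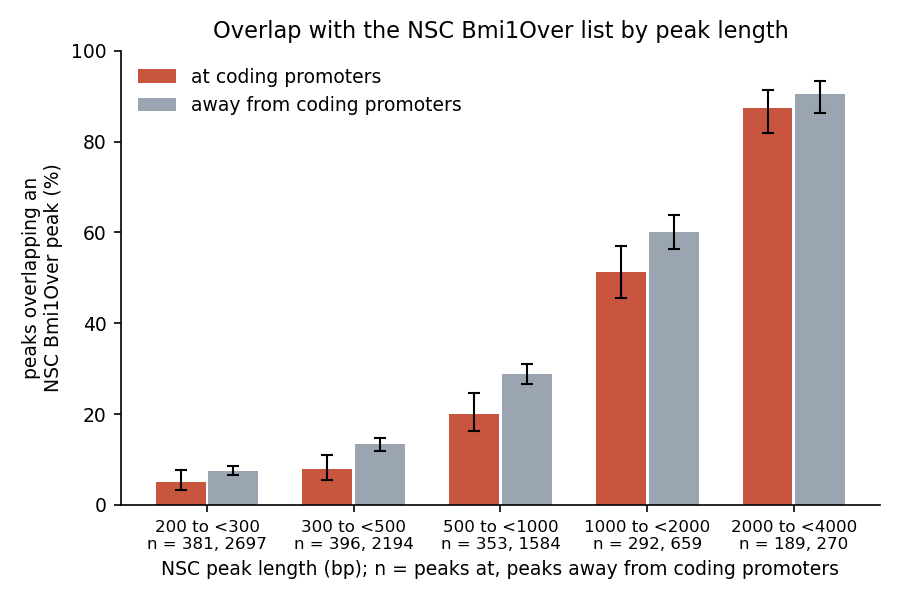
Share of short NSC peaks (%) that overlapped an NSC Bmi1Over peak in 5 length classes (bp), at coding promoters (red) and away from them (grey). Bars carry 95% Wilson intervals for counting error, and the numbers of peaks stand under each class. The share rose from 4.99% to 87.3% at coding promoters.

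The overlap also followed enrichment. Outside the tracts it was 8.57% for members under 4-fold, 18.6% from 4-fold to under 4.5-fold, 30.3% from 4.5-fold to under 5-fold, 59.6% from 5-fold to under 6-fold, and 82.7% at 6-fold or more. Members that covered a coding TSS were overlapped in 40.1% of cases and those that did not in 18.95%, and the former were also longer (median 1082 bp against 396 bp). Members in chains spanning 4000 bp or more were overlapped in 52.5% and the others in 20.2%. Counted by gene, 321 of the 1006 genes with short promoter peaks only (31.9%) had an NSC Bmi1Over peak in the same window, against 296 of 311 genes with a broad promoter peak (95.2%).

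The strongest members that met no NSC Bmi1Over peak lay at Doc2b (7.01-fold), Pnma2 (6.91-fold), Pappa (6.67-fold), Fcgr3 (6.53-fold) and Begain (6.36-fold). Doc2b, a calcium sensor of vesicle release, had a single peak of 924 bp over DNA with a CpG ratio of 0.884, and the peak at Begain, a postsynaptic protein gene, was 2564 bp long and covered the start. The peaks of Pnma2, Pappa and Fcgr3 measured 294, 908 and 374 bp. Their genes stood between 0.0136 RPKM for Pappa, a protease that cleaves IGF-binding proteins, and 0.655 RPKM for Begain in NSC.

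The longest members that did meet one were at Gm4881, Crhr1, Arid3a, Ocln and Adgrb1. Crhr1, the receptor for corticotropin-releasing hormone, was covered over 681 of its 3941 bp. Arid3a, a DNA-binding factor, was covered over 255 of 3939 bp, and Ocln, the tight junction protein occludin, over 1134 of 3930 bp. The peak of Adgrb1, an adhesion receptor, was covered over 530 of 3928 bp. An overlap of a long member was therefore often partial, and when cover of at least 50% of the member was asked for, the share of members was 6.77%.

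Genes of several transcription factor families were common among the 1052, although more of the homeobox genes fell in broad peaks. The Zfp zinc finger genes were not, with a short peak at 4 of 385 (1.04%). The gene families below were read from symbol lists and are set beside the 5.06% of all autosomal coding genes with a short promoter peak. Of 176 homeobox genes 34 had a short peak (19.3%) and 117 a broad one, with 7 in both. The strongest after Barhl1 and Gbx1 were Alx1 (6.90-fold), a craniofacial factor that also had a broad peak, and Cdx1 (6.52-fold), a factor of the intestine. Neither had a read in NSC. Of 68 basic helix-loop-helix genes 16 had a short peak (23.5%), led by Hes2, Twist2 and Mycn, at 6.01-fold, 5.70-fold and 5.39-fold. Of 41 forkhead genes 6 had one, among them Foxe3, a lens factor with no read. Of 103 Sox, Gata, T-box, Zic, Gli and Klf factors and their like 15 had one, with Gata5, Nr2f2 (5.89-fold), Sox18 (5.62-fold) and Egr4 (5.37-fold) strongest.

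Secreted ligands and their antagonists formed another set. Of 55 Wnt ligands, receptors and inhibitors 19 had a short promoter peak (34.5%) and 6 a broad one. The strongest were the ligands Wnt10a (6.13-fold) and Wnt11 (5.52-fold), the receptor Lgr6 (5.81-fold) and Notum (5.68-fold), which removes the lipid from Wnt proteins. Of 70 genes of TGF-beta and BMP signalling 16 had a short peak (22.9%) and 1 a broad one. These included the ligand Gdf6 (7.05-fold), the latent TGF-beta binding protein Ltbp2 (6.59-fold), the inhibitory Smad6 (6.47-fold) and the ligand Bmp6 (5.50-fold), all at or below 0.0469 RPKM in NSC. Of 31 FGF ligands and receptors 8 had one (25.8%), led by the ligands Fgf20 (6.09-fold), Fgf3 (5.83-fold), Fgf15 (5.43-fold) and Fgf8 (4.64-fold). Of 69 axon guidance genes 9 had one (13.0%), with Epha7 (4.85-fold), Sema7a (4.62-fold), Slit1 (4.57-fold) and Epha8 (4.51-fold) strongest, and of 99 cadherins 8 (8.08%), led by Cdh23 (6.20-fold).

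Genes of excitable cells were also frequent. Broad peaks were found at 1.49% of all autosomal coding genes. Of 135 voltage-gated channel subunits 37 had a short promoter peak (27.4%) and 2 a broad one. The strongest were the T-type calcium channels Cacna1g (7.03-fold) and Cacna1i (6.12-fold) and the potassium channels Kcnk9 (5.84-fold) and Kcnk15 (5.47-fold). Of 136 neurotransmitter receptors 37 had a short peak (27.2%) and 1 a broad one, led by the NMDA receptor subunit Grin2b (5.80-fold), the adrenoceptors Adra2a (5.66-fold) and Adra2b (5.49-fold) and the nicotinic subunit Chrna3 (5.65-fold). Solute carriers had 35 of 372 (9.41%), among them Slc18a3 (5.93-fold), the vesicular acetylcholine transporter, and Slc6a20a, Slc6a7 and Slc30a2, at 6.26-fold, 5.85-fold and 5.68-fold. Of 83 collagens, laminins and integrins 9 had one (10.8%), led by Col13a1 (6.23-fold), Col27a1 (6.03-fold), Col15a1 (5.93-fold) and Col14a1 (5.76-fold).

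The remaining lists ranged from no short promoter peak to shares above the 5.06% of all genes. Short promoter peaks were found at 4 of 385 Zfp genes (1.04%), 3 of 1469 olfactory and vomeronasal receptors (0.204%), and at 0 of 79 cytosolic ribosomal protein genes and 0 of 38 proteasome genes. Of 12 NSC markers 1 had one (8.33%), Prom1 (4.14-fold, 0.791 RPKM). Of 6 autosomal neuron markers 2 had one (33.3%), Rbfox3 (6.20-fold) and Stmn2 (4.51-fold). None was found at the 5 astrocyte markers, the 5 autosomal oligodendrocyte lineage markers, the 6 mesenchymal, the 6 microglia, the 5 endothelial and the 5 autosomal erythroid markers listed. Of 27 genes of the Polycomb machinery 2 had one (7.41%), Cbx2 (5.65-fold, 6.68 RPKM) and Pcgf2 (4.67-fold, 2.01 RPKM), and of 7 CDK inhibitors 1 (14.3%), Cdkn1c (4.94-fold, 1.06 RPKM). Cdkn2a and Efna5 had a broad promoter peak and no short one, and Bmi1, Ezh2, Suz12, Eed, Rnf2 and Kdm6b had neither.

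RNA of the genes with short promoter peaks was low in NSC but not absent. Of the 1052 genes 1047 were in the count tables. Their median level was 0.0881 and 0.0861 RPKM in the 2 NSC cultures, and 0.0944 and 0.123 RPKM in the libraries labelled NSC Bmi1Over. For the 1001 counted genes with short promoter peaks only, the median of the NSC mean was 0.0860 RPKM, against 0.00661 RPKM for 311 genes with a broad peak and 1.54 RPKM for 19308 genes with neither. No NSC read was counted for 127 of the 1001 (12.7%), against 44.7% of the genes with a broad peak and 24.4% of those with neither. Levels of 1 to 10 RPKM were reached by 165 genes with short peaks only and levels of 10 RPKM or more by 14. Fewer cells with a transcript and less RNA per cell cannot be told apart in such bulk samples.

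The low level was clearest at CpG-rich starts. Where the CpG ratio of that window was 0.6 or more, genes with short peaks only had a median of 0.214 RPKM (n = 437) and genes with no peak 8.26 RPKM (n = 6621). Where it was under 0.6, the medians were 0.0464 RPKM (n = 564) and 0.0546 RPKM (n = 12687). The spreads differed there, with upper quartiles of 0.259 and 3.34 RPKM and no NSC read for 16.8% and 36.5% of genes. Within the short-peak genes, those with an NSC Bmi1Over promoter peak stood at 0.0436 RPKM and those without at 0.119 RPKM. A peak over a TSS went with 0.0569 RPKM and its absence with 0.175 RPKM. Genes with a peak near the 5′ end stood at 0.0730 RPKM and those with a peak at other starts only at 0.225 RPKM. Genes outside the tracts whose strongest peak reached 5-fold or more stood at 0.0624 RPKM, and those under 4-fold at 0.139 RPKM. These are medians over genes, which are not replicates, and no test was made.

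**Figure D4:**
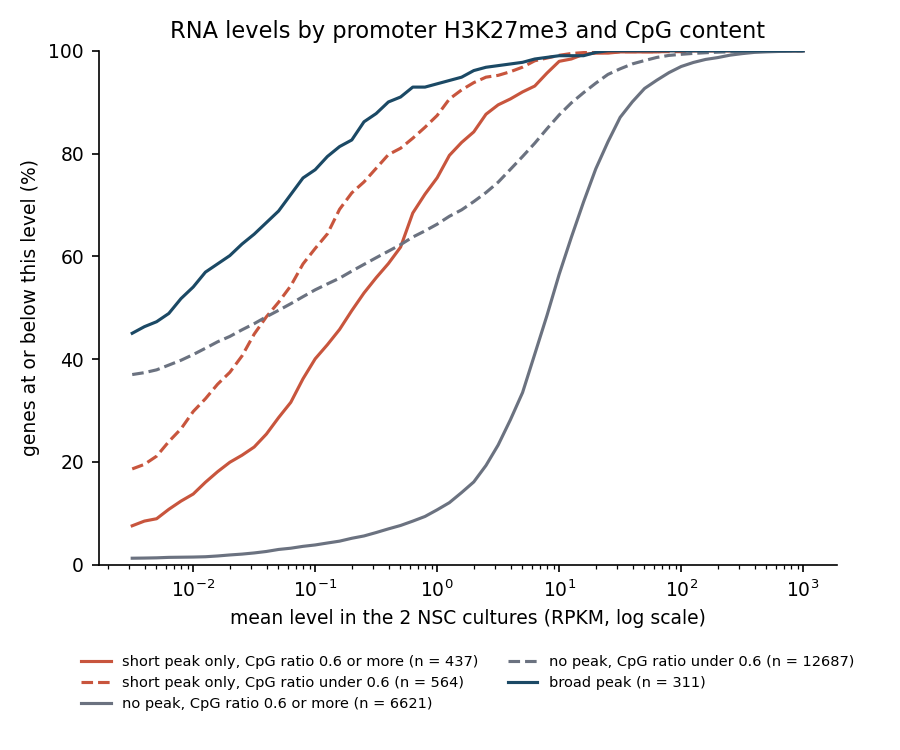
Cumulative share of genes (%) by mean RNA level in the 2 NSC cultures (RPKM, log scale), for genes with short promoter peaks only and with no peak, split at a CpG ratio of 0.6, and for genes with a broad peak. At CpG-rich starts the medians were 0.214 RPKM with short peaks and 8.26 RPKM with no peak, and at CpG-poor starts 0.0464 and 0.0546 RPKM. The upper quartiles at CpG-poor starts were 0.259 and 3.34 RPKM.

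Some genes with a short promoter peak were nevertheless well expressed. Of the 11 described here, 5 had a peak over a TSS of their own and 6 only within 1 kb of one. RNA was counted per gene, and the 11 had between 2 (H60b) and 14 (Npdc1) annotated starts. Whether the RNA came from a start near the peak cannot be told. Sept9, a cytoskeletal septin, had 120 and 112 RPKM in the NSC cultures and 117 and 92.4 RPKM in the libraries labelled NSC Bmi1Over, with a single peak of 764 bp at 5.27-fold over its start. Hjurp, the chaperone of the centromeric histone CENP-A, had 69.7 and 71.5 RPKM in NSC and a peak of 422 bp at 4.47-fold. Tjp1, a tight junction scaffold, had 29.8 and 24.9 RPKM and a peak of 255 bp at 3.63-fold. Npdc1, a neural differentiation gene, had 23.5 and 28.2 RPKM, and its peaks of 200 and 517 bp covered no TSS. Adgrb1 had 17.3 and 21.3 RPKM beside its peak of 3928 bp.

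The remaining genes of the highest 10 stood between 11.1 and 15.6 RPKM in each NSC culture. Sympk, a scaffold of RNA 3′ end processing, had 14.2 and 14.7 RPKM. Its peak covered a TSS of the neighbouring Foxa3 (0.0097 RPKM) and none of Sympk. The peaks of Hjurp, H60b and Npdc1 also lay within 1 kb of starts of Trpm8 (0.0033 RPKM), Raet1e (5.75 RPKM) and Entpd2 (0.033 RPKM) in that order. Cdon, a Hedgehog co-receptor, had 11.1 and 15.6 RPKM and peaks at 4.56-fold and 3.79-fold that covered no TSS. H60b, a ligand of the NKG2D receptor and a member of a family of close copies whose reads may be uncertain, had 12.2 and 14.5 RPKM and a peak of 233 bp at 5.59-fold centred 891 bp upstream of the nearest coding TSS. Htra1, a secreted serine protease, had 12.7 and 13.9 RPKM. Lhx2 had 12.9 and 13.4 RPKM, and its 9 short peaks ran from 3.65-fold to 6.18-fold, 5 of them overlapping NSC Bmi1Over peaks. Dab1, an adaptor of Reelin signalling that came next in level, had 10.5 and 11.02 RPKM and peaks of 254, 518 and 513 bp. None of these 11 genes was called between the groups by edgeR, 7 had an unadjusted p under 0.05, and 1 was called by DESeq2 and 7 with the replicate block. The corresponding shares of all genes were 2.15%, 24.2%, 11.2% and 22.3%.

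The libraries labelled NSC Bmi1Over did not have raised Bmi1. Its level was 133 and 124 CPM (counts scaled to the TMM-normalised library size) in NSC, against 119 and 113 CPM in the labelled libraries, a log2 fold change of −0.15 (SE 0.12, adjusted p = 0.463, edgeR). Directions below are therefore those of the labelled libraries. The shallowest library, NSC Bmi1Over replicate 1, had 18112100 counted reads, and the deepest, NSC Bmi1Over replicate 2, had 61353076. The 12 NSC markers summed to between 6456 and 7319 CPM in each library. Markers of microglia (1.33 and 1.98 CPM in NSC, 2.46 and 3.17 CPM in the labelled libraries), endothelial cells (2.66 and 3.88 CPM against 4.97 and 5.53 CPM, Cldn5 at 0), mesenchymal cells (0.927 to 1.26 CPM) and erythroid cells (0.400 to 0.602 CPM, the 4 globins at 0) were at or near 0, with the microglia and endothelial sums higher in each labelled library. The 7 neuron markers summed to between 926 and 1012 CPM, of which Map2 made up 788 to 919 CPM. Syt1, the synaptic vesicle calcium sensor, was called higher among them, with 9.13 and 27.2 CPM in NSC against 66.5 and 95.8 CPM (log2 fold change 2.18, adjusted p = 0.0428, edgeR). The 6 oligodendrocyte lineage markers summed to 237 and 314 CPM in NSC and 275 and 485 CPM in the labelled libraries, of which Cspg4 made up 197 to 424 CPM. The 5 astrocyte markers summed to 253 and 193 CPM in NSC and 137 and 125 CPM in the labelled libraries, with Aldh1l1 called lower (log2 fold change −0.86, adjusted p = 0.0440, edgeR). The part of neuron, astrocyte, oligodendrocyte lineage, microglia and endothelial markers in the results below was not tested.

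Of 561 tested genes with a short promoter peak 21 (3.74%) were called at an adjusted p under 0.05, and each of them was higher in the libraries labelled NSC Bmi1Over. Over all 15521 tested genes the background was 334 called (2.15%), with 2.03% higher and 0.122% lower, so that nearly all calls in this comparison were in that direction. At an unadjusted p under 0.05 (edgeR), 134 members were higher and 29 lower, together 29.1% of members, against 24.2% of all tested genes (17.0% higher and 7.22% lower). DESeq2 called 47 higher and 5 lower, or 12.9% of the 403 members it gave an adjusted p, against 11.2% of 13414 genes (9.71% higher and 1.45% lower), and with the replicate number as a block edgeR called 22.5% of members and 22.3% of all genes. The members' share was thus close to the background in the last of these fits. With library size alone as scaling, which moved the median of all genes to −0.17, the calls were 346 higher (2.23%) and 191 lower (1.23%) over all genes, together 3.46%, and 26 higher and 9 lower among the members. The median log2 fold change was 0.25 over the tested members and −0.01 over all tested genes. Above 0 stood 379 members (67.6%), against 48.6% of all tested genes and 46.7% of those with no promoter peak.

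This shift went with the level of the genes and with 1 library. Under 1 RPKM in NSC, the median was 0.34 for members and 0.28 for genes with no promoter peak. At 1 RPKM or more it was 0.12 and −0.06. The level classes were cut on the same NSC libraries that enter the fold change. The median differences of the members against the 2 NSC cultures were 0.026 and 0.061 for NSC Bmi1Over replicate 1 and 0.26 and 0.30 for replicate 2. Without replicate 2 the median of the members was 0.066, and 21 of 578 (3.63%) were called, of which 14 were higher and 7 lower. Over all 15872 genes of that fit the median was −0.011, and 230 (1.45%) were called, 183 higher (1.15%) and 47 lower (0.296%). Members with an NSC Bmi1Over promoter peak and no broad peak had a median of 0.33, and those without had 0.20.

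The largest change among the called genes was that of Gm10800, in a repetitive tract, with 4 and 2 reads in NSC, against 15 and 289 in the labelled libraries. Its log2 fold change of 4.88 (SE 0.91, adjusted p = 0.0411, edgeR) was 2.97 without NSC Bmi1Over replicate 2, and the other tract genes gave too few reads for the test. Gm10800 passed the count filter only through the labelled libraries, where it was high, so the size of its change is uncertain.

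Oxtr, the oxytocin receptor, had 0.444 and 1.62 CPM in NSC and 5.54 and 5.93 CPM in the labelled libraries, a log2 fold change of 2.52 (SE 0.46, adjusted p = 0.0397, edgeR). Its peaks of 334 and 200 bp met no NSC Bmi1Over peak, and its adjusted p was 0.0621 without NSC Bmi1Over replicate 2. Gabbr2, a subunit of the GABA-B receptor, had 9.47 and 10.1 CPM against 23.7 and 21.0 CPM, a log2 fold change of 1.19 (SE 0.15, adjusted p = 0.0157, edgeR), with a peak of 461 bp over its start. Bmp2, a BMP ligand, had 0.507 and 0.633 CPM against 1.66 and 1.84 CPM (log2 fold change 1.63). Sema3f, a secreted repellent of axons, had 2.57 and 3.64 CPM against 7.03 and 8.77 CPM (1.37 on the log2 scale), and Plxna4, a semaphorin co-receptor, had 17.3 and 20.1 CPM against 32.3 and 41.6 CPM (0.99).

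Cacna2d3, an auxiliary calcium channel subunit, had 21.6 and 23.5 CPM in NSC against 51.1 and 52.7 CPM, a log2 fold change of 1.21 (SE 0.12, adjusted p = 0.0071, edgeR). Atp2a3, a calcium pump of the endoplasmic reticulum, had 4.31 and 8.74 CPM against 21.2 and 28.1 CPM (1.94 on the log2 scale), and Mctp1, a calcium-binding membrane protein, had 1.24 and 0.989 CPM against 5.998 and 5.04 CPM (2.29). Tenm4, a teneurin of neuronal connectivity, had the smallest p of the members, with 17.9 and 19.9 CPM against 50.7 and 54.5 CPM and a log2 fold change of 1.48 (SE 0.13, adjusted p = 0.0039, edgeR). Its strongest peak, of 2246 bp at 6.58-fold, was covered by NSC Bmi1Over peaks over 1321 bp. St8sia2, a polysialyltransferase of neural cells, had 4.28 and 4.71 CPM against 13.5 and 15.1 CPM (1.68), and 949 bp of its peak of 2386 bp were covered.

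Tbx3, a T-box factor, had 0.729 and 0.198 CPM against 2.40 and 2.85 CPM (2.45 on the log2 scale), and Vgll2, a cofactor of TEAD proteins, had 0.539 and 0.672 CPM against 2.11 and 1.94 CPM (1.74). Both also had a broad promoter peak. Smoc2, an extracellular calcium-binding protein, had 1.43 and 1.46 CPM against 3.37 and 4.23 CPM (1.41). Colec12, a scavenger receptor, had 0.665 and 0.672 CPM against 2.80 and 2.64 CPM (2.01), and Plxdc2, a transmembrane protein, had 5.70 and 5.34 CPM against 10.9 and 12.9 CPM (1.11). The remaining called genes were Atoh8 and Slc25a48, with means below 1 CPM, and Gpr153, Lynx1 and Slc12a7, with log2 fold changes of 2.19, 2.29, 1.03, 0.98 and 0.81. Atoh8 (8 and 5 reads in NSC) and Slc25a48 (5 and 6) also passed the count filter only through the labelled libraries. The NSC and labelled libraries did not overlap in any of the 21, as was also so for the 285 called genes with no promoter peak. With a culture left out, the lone library of its group is assumed to vary like the other group. Without NSC Bmi1Over replicate 2, 9 of the 21 remained called, and Atoh8, Bmp2, Gm10800, Gpr153, Oxtr, Plxdc2, Sema3f, Slc12a7, Slc25a48, Smoc2, Tbx3 and Vgll2 did not, at adjusted p between 0.0621 and 0.158 (edgeR). The log2 fold changes of these 12 moved by at most 0.25, except that of Gm10800. Without NSC replicate 1, 12 remained called, and Atoh8, Bmp2, Gpr153, Lynx1, Sema3f, Slc12a7, Slc25a48, Smoc2 and Vgll2 did not, at adjusted p between 0.0793 and 0.272 (edgeR).

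**Figure D5:**
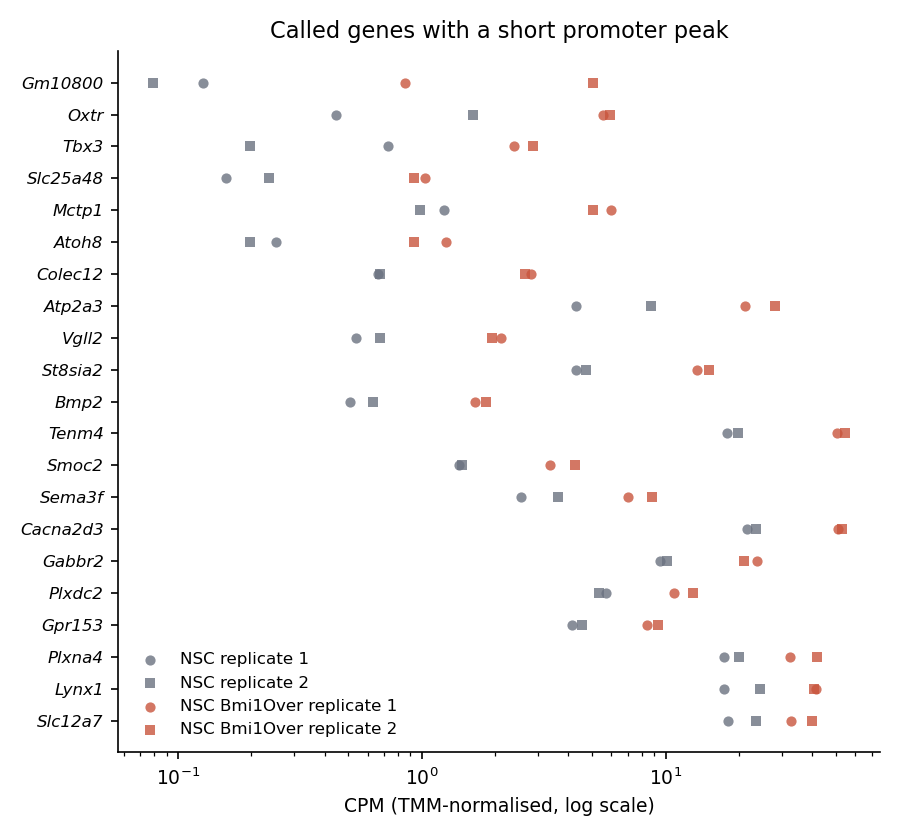
CPM (TMM-normalised, log scale) in each of the 4 RNASeq libraries for the 21 called genes with a short promoter peak, ordered by log2 fold change. Grey marks are NSC and red marks the libraries labelled NSC Bmi1Over, with circles for replicate 1 and squares for replicate 2. The red marks lie to the right of the grey ones for each gene.

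By family, calls among genes with a short promoter peak stand beside the 3.74% of all tested members and the 2.15% of all tested genes. At an unadjusted p under 0.05 these shares were 29.1% and 24.2%, and with DESeq2 12.9% and 11.2%. In edgeR's test they comprised 0 of 19 tested homeobox genes, with 6 at an unadjusted p under 0.05 (1 higher and 5 lower) and 2 called by DESeq2 (1 in each direction), and 0 of 9 tested Wnt genes, with 4 and 1. Calls were made for 1 of 6 helix-loop-helix genes (Atoh8), 1 of 8 Sox, Gata and T-box genes and their like (Tbx3), and 1 of 4 TGF-beta and BMP genes (Bmp2). Among axon guidance genes 2 of 8 were called (Sema3f and Plxna4), among voltage-gated channel subunits 1 of 23 (Cacna2d3), among neurotransmitter receptors 1 of 18 (Gabbr2) and among solute carriers 2 of 16 (Slc12a7 and Slc25a48). Each of these calls was higher in the labelled libraries. Whole lists, with or without a peak, had 8 of 64 axon guidance genes, 6 of 96 channel subunits and 6 of 77 receptors called higher. The same held for 6 of 245 solute carriers, 1 of 28 helix-loop-helix, 3 of 42 TGF-beta and BMP and 3 of 37 Wnt genes. Collagens, laminins and integrins had 13 of 59. The homeobox list (54 tested) and the Sox, Gata and T-box list (62 tested) each had 1 higher and 1 lower. The median log2 fold change of the 19 homeobox genes was −0.023, against 0.25 over all tested members. No member of the forkhead, FGF, cadherin, collagen, laminin and integrin, Zfp, NSC marker, neuron marker, Polycomb or CDK inhibitor lists with a short peak was called, with 2, 1, 6, 4, 4, 1, 1, 2 and 1 tested. Over these lists together 6 of 22 genes had an unadjusted p under 0.05 (edgeR), against 24.2% of all genes, and DESeq2 called 0, against 11.2%.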

How the data were processed

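Reads were trimmed with Trim Galore by the authors, who aligned ChIPSeq reads to mm10 with Bowtie (Bowtie2 2.3.4 in the submitters' processing notes), dropped multi-mapped reads, and retained a single library of each kind for MACS2 in broad mode. The deposited lists hold, for every peak, the ratio of signal to background (fold enrichment), a −log10 p-value and a −log10 q-value. The deposited display score was not used. RNASeq reads were aligned with STAR, and the authors deposited counts per gene, without normalisation.

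Peaks were intersected with TSSs of GENCODE vM21 in Python 3.11.15, and sequence was read from GRCm38.p6, the build of the files. CpG ratio, soft-masking and 31-base words were computed per peak. Reads outside genes stayed out (65.9% to 72.2% of reads were counted), and the unstranded column was used, so that overlapping genes on opposite strands cannot be told apart. Counts were fitted with edgeR 4.0.16 in R 4.3.3 (filterByExpr, TMM, quasi-likelihood F-test, group only, Benjamini-Hochberg adjusted p under 0.05). RPKM used merged exon length and TMM-scaled library size. On simulated counts over 15284 genes for this comparison, calls recovered 68% of the 2-fold and 95% of the 4-fold changes, with 8.94% of calls false.

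The members, gene lists and tests were chosen with earlier results of these data known. Named genes were the Polycomb genes with Cdkn2a and Efna5, the genes of the 10 strongest members, the 10 with short peaks only and the highest RPKM, the called members of at least 1 CPM with the 15 largest changes in each direction, the 5 strongest members without overlap and the 5 longest with it, the 3 peaks on each side of the length limit, and up to 4 per list. As the strongest 10 all lay in the tracts, those outside the tracts were added after values were seen, as were P4ha2, Dab1, Elobl, other genes that share a peak with a named one, and called genes outside the rule. Alternatives comprised DESeq2 1.42.0, other scalings and filters, a fit on coding genes, a replicate block, each culture left out, and other windows, length limits, thresholds and overlaps. Leaving out the repetitive tracts was added after the data were seen.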

Additional observations from a re-analysis of the deposited data

How the results depend on the processing

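Over all genes the count of calls, 334, was 1496 with DESeq2's Wald test, 537 with library size alone, 2356 with no filter on low counts, 3459 with the replicate block, and between 176 and 2546 with 1 culture left out. The replicate numbers are not said to pair the cultures, and same-numbered cultures deviated together with r = 0.17 over 15521 genes. Among members the 21 calls became 52, 35, 120 and 126 in the same order, and between 20 and 101 with a culture left out. As shares these were 12.9%, 6.24%, 12.5% and 22.5% of members with an adjusted p, against 11.2%, 3.46%, 8.25% and 22.3% of all genes, so that the excess over all genes was nearly gone with the block and small with DESeq2. Restricting members to at least 5-fold left 5 calls among 136 tested, and to a −log10 q of at least 3 left 10 among 343. In the main fit 3.74% of tested members and 2.15% of all tested genes were called. The median log2 fold change of members was 0.093 with library size alone, against −0.17 over all genes, and 0.25 in the main fit, against −0.01. With a culture left out the members' median was between 0.066 and 0.35, against −0.023 to −0.0015 over all genes. Over 22 genes (the 21 called members and Bmi1), 212 of 237 gene and setting pairs kept their call or lack of one, 25 lost a call and 0 changed sign.

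A window of 5 kb gave 3296 peaks, an overlap of 23.5%, a median of 0.104 RPKM and a CpG ratio of 0.301. A window of 500 bp gave 31.1%, 0.0712 RPKM and 0.554, and gene 5′ ends alone gave 0.0753 RPKM and 0.544. At least 5-fold gave 314 peaks, 290 genes, 67.5%, 0.0561 RPKM and 0.591, and a −log10 q of at least 3 gave 892, 685, 40.6%, 0.0710 RPKM and 0.547. Length limits of 2000 and 1000 bp gave 19.1% and 10.7%, and 0.0976 and 0.103 RPKM. The overlap was 6.77% with at least 50% of the member covered and 38.2% with an NSC Bmi1Over peak within 1 kb. The median level was 0.336 as TPM and between 0.0861 and 0.0881 RPKM with 1 NSC culture left out. The cause of these differences was not tested. Leaving out the tracts, an alternative chosen after seeing the data, moved none of the counts, shares and medians recomputed here beyond its spread, while the highest enrichment went from 73.6-fold to 8.31-fold. Which of the stated read totals belongs to the ChIPSeq library kept for each condition is not known, the weakest having been dropped by the authors. Groups of 2 cultures limit the RNASeq comparison.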
